A study of Rattus norvegicus with 6 samples.

Results

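The integrin, laminin and other basement membrane genes described here were chosen by symbol: integrin alpha chains with a number or the letters v, x, l or m, integrin beta chains, laminin chains, nidogens, and Hspg2, Agrn, Dag1, Ilk and Ptk2. Of 17055 gene rows in the count files 30 matched. The 29 described are 10 integrin alpha chains, 8 integrin beta chains, 6 laminin chains, Nid2, Agrn, Dag1, Ilk and Ptk2. A RefSeq gene table lists 42 protein-coding symbols of the same description, and the other 12 (Hspg2, Itga2, Itga2b, Itga3, Itga9, Itgav, Itgax, Lama2, Lama3, Lama4, Lamb1 and Nid1) were not analysed here. Partners of several chains that were measured, such as Itgav for Itgb8 and Lama3 for Lamb3, are among these 12.

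Integrins are the paired surface receptors, each of an alpha and a beta chain, by which cells hold on to extracellular matrix. Laminins are proteins of an alpha, a beta and a gamma chain that, with nidogens and the proteoglycan agrin, build the basement membrane. In rodent islets, the endocrine cell clusters of the pancreas, beta cells make little basement membrane themselves and rest on that of the capillaries. Integrins on their surface read that sheet through the linker kinase Ilk and the focal adhesion kinase Ptk2, and dystroglycan (Dag1) is a further laminin receptor.

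The RNA-seq libraries were made from intact islets of untreated Sprague-Dawley rats of 2 ages. The P10 rats were 10 days old (3 libraries, replicates 1, 3 and 4) and the labels give no sex for them. The adults were males aged 3 months (3 libraries, replicates 1, 2 and 3). Each library is labelled a biological replicate. Whether several pups were pooled for a P10 library is not given in the sources used here, and p-values cover the spread between libraries only. The comparison bears on how islets change between suckling and adult life. As only the adults are labelled male, a difference of sex cannot be told apart from one of age. Levels are in CPM, a gene's counts over the size of its library after scaling by edgeR's trimmed mean of M values (TMM), in the usual units. They are listed in the order P10 replicates 1, 3 and 4, then adult replicates 1, 2 and 3. A gene was called where the quasi-likelihood test of edgeR gave a false discovery rate (FDR, over all 10124 genes tested) under 0.05.

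Gene counts per library ran from 3307415 to 6477825, and a floor of 3 counts was worth between 0.407 and 1.0996 CPM, for counting error only. All 8 beta-cell markers had counts in both groups, and 7 of them were higher in adults. Markers of other cell types differed between the ages too. Of 6 alpha-cell markers 2 were lower in adults and none was higher (summed level 24691 to 27672 CPM at P10 and 12979 to 17583 CPM in adults). Of 8 acinar markers 3 were lower and 3 were higher (2467 to 3518 against 997 to 3827 CPM). All 7 tested fibroblast or stellate markers were lower in adults (summed level 2589 to 3331 CPM at P10 and 216 to 295 CPM in adults; Col1a2 listed 0 in every library). So were 7 of 8 pericyte or smooth muscle markers (416 to 497 against 99.5 to 132 CPM), 4 of 5 tested duct markers (1101 to 1122 against 152 to 206 CPM) and 2 of 3 tested Schwann cell markers (40.3 to 80.2 against 13.0 to 28.2 CPM). Of 10 endothelial markers 3 were lower (169 to 249 against 110.3 to 158 CPM), and none of 8 tested leukocyte markers was called (0 at an unadjusted p under 0.05 in edgeR, and 0 in DESeq2). Over all genes tested 13.8% were lower in adults and 12.5% were higher, 26.3% in all. The share of endothelial markers called is near that of all genes and is no result about these cells. The part of these cell types in the results below was not tested. In whole islets, fewer cells of a type and less RNA per cell cannot be told apart.

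Several matrix-receptor genes and nearly all laminin genes that could be tested were lower in adult islets. Of the 29 genes 25 were tested: 12 were lower in adults, 1 was higher and 12 did not pass. Over all genes tested 13.8% were lower and 12.5% higher, 26.3% in all. The fibronectin receptor chain Itga5 fell 5.50-fold and 4 of the 5 tested laminin chains fell between 1.90-fold (Lamc1) and 4.78-fold (Lamb3). The common beta chain Itgb1, Dag1, Ilk and Ptk2 did not pass, and Itgb8 was the gene that rose. The median log2 fold change, adult over P10, was -0.93 for the 25 genes and -0.029 for all genes tested, and the sign was negative in 19 of 25 against 51.7% of all genes. The levels of the 2 ages did not overlap for 18 of 25, against 42.3% of all genes. Itga8, Itgb3 and Itgb8 reached the filter's level in libraries of 1 age only, so they could enter the test only by being high at that age. All of them are in the count without overlap, and Itgb3 and Itgb8 are in the counts of calls. Summed over the 29 genes the level was 1407, 1490.3 and 1419 CPM at P10 and 829, 914 and 930.3 CPM in adults.

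**Figure D1:**
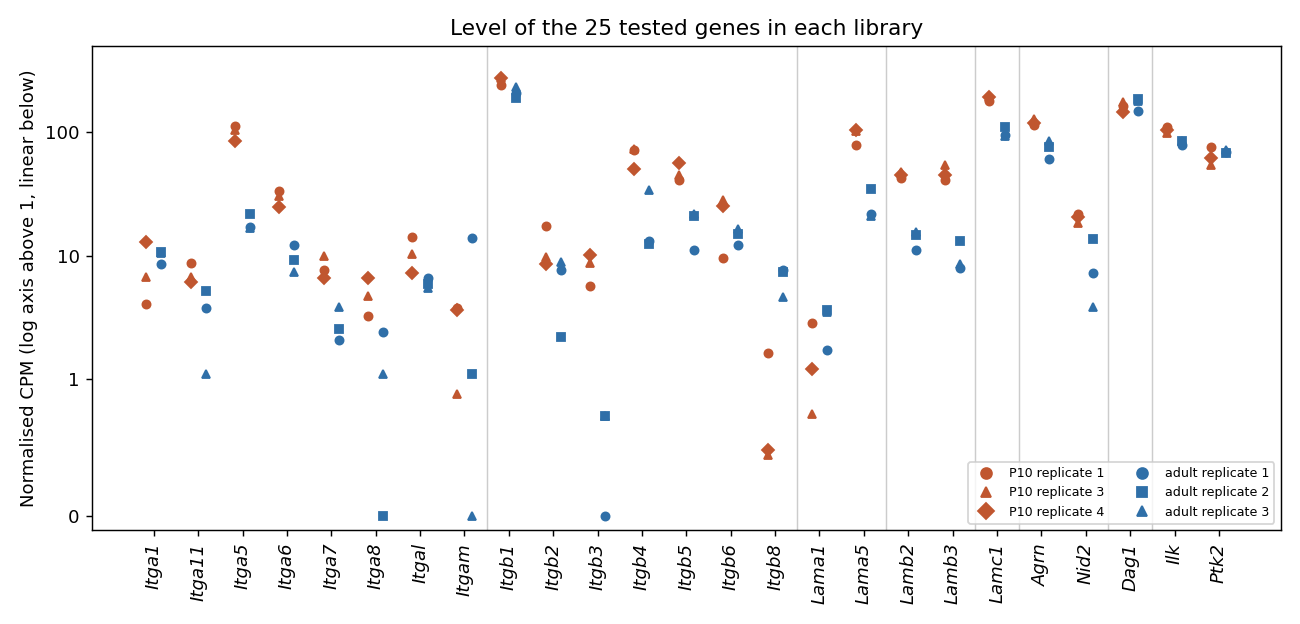
Normalised level (CPM, log axis above 1 and linear below) of the 25 tested genes in each library, with P10 in orange and adult in blue and a marker for each replicate number; grey lines part the roles. For Itga5 the 3 P10 points lie between 85.0 and 112 CPM and the 3 adult points between 16.7 and 21.6, whereas the points of Dag1 and Ptk2 mix.

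Directions depend on scaling. Both insulin genes together took 28.4% to 33.6% of gene counts at P10 and 46.7% to 52.3% in adults. With library totals alone, without composition factors, the median over all genes moved by -0.49 in log2 fold change, and 343 genes were higher and 3612 lower against 1265 and 1394. Under that scaling 20 of the 25 genes were lower and 1 was higher, and all 13 called above were called in the same direction. The values given here thus compare a gene with the bulk of genes in its library.

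**Figure D2:**
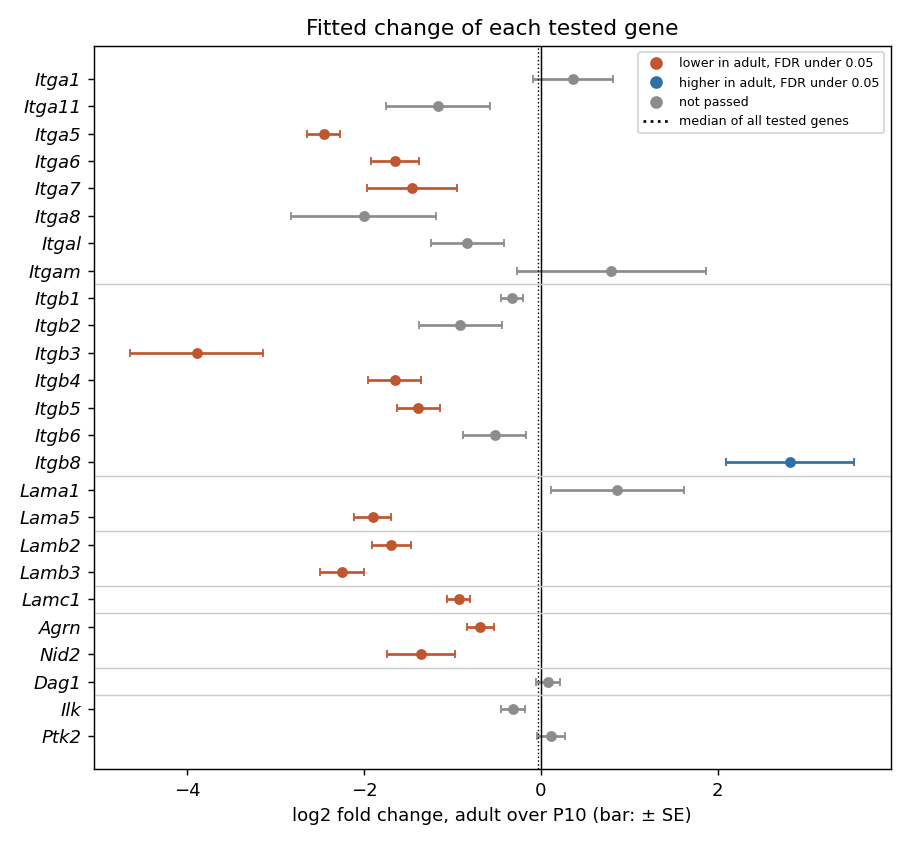
Fitted log2 fold change, adult over P10, of each tested gene with its standard error; orange is lower and blue higher in adults at an FDR under 0.05, grey did not pass, and the dotted line is the median of all tested genes. Itgb8 is the 1 blue point, at 2.82, and Itgb3 lies farthest to the left, at -3.90.

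For 3 of the genes that fell most clearly, the 250 bases before the transcription start are printed here, so that the starts of a receptor chain and of a laminin alpha and beta chain can be set side by side. They are from RefSeq on the GRCr8 build, 5′ to 3′ on the gene's strand, and capitals mark GGGCGG, the GC box bound by Sp factors, or its reverse complement. The Itga5 window is chr7:136381306-136381555 on the minus strand, that of Lama5 chr3:187695975-187696224 on the minus strand and that of Lamb3 chr13:107362303-107362552 on the plus strand.
Itga5: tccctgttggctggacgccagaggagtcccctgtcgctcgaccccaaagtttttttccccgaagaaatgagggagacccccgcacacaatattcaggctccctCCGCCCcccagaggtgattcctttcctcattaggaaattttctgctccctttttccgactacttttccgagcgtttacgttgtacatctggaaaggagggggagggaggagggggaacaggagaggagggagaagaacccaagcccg
Lama5: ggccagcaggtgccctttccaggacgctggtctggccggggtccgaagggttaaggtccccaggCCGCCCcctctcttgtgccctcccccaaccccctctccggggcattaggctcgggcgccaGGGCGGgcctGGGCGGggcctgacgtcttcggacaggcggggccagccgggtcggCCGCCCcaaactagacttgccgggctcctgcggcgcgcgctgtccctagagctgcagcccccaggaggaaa
Lamb3: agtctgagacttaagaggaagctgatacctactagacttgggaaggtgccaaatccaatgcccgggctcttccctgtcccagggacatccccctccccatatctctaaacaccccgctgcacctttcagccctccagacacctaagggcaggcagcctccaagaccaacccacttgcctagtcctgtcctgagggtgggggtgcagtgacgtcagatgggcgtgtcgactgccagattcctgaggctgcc
The Itga5 window held 1 match, that of Lama5 held 4 and that of Lamb3 none, with 55.6%, 72.8% and 58.4% of bases G or C. Of the 29 genes 19 had an entry in the promoter table, and 9 of these windows (47.4%) held the motif on either strand. Among all 33469 windows of that length 30.5% did. Of the 6 genes with an entry that were lower in adults 3 held it. A match describes the letters and no binding was measured.

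Among the integrin alpha chains 3 of 8 tested fell and 5 did not pass, beside 13.8% lower and 12.5% higher among all genes tested. Itga5, which pairs with Itgb1 as the main fibronectin receptor, stood at 112, 104 and 85.0 CPM at P10 and at 16.9, 21.6 and 16.7 CPM in adults. Every P10 library was above every adult library, and the log2 fold change was -2.46 ± 0.19 (SE; edgeR FDR = 1.53e-07). The gene of its ligand, fibronectin (Fn1, named after its values were seen), did not pass, at 411 ± 39.6 CPM at P10 and 476 ± 75.3 CPM in adults (SD, n = 3; edgeR FDR = 0.275).

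Itga6, the laminin-binding chain that pairs with Itgb1 or Itgb4, fell 3.14-fold, from 33.2, 30.3 and 24.8 CPM to 12.1, 9.16 and 7.34 CPM (edgeR FDR = 0.000385). Itga7, another laminin-binding chain, best known from muscle, was low, at 7.59, 9.96 and 6.55 CPM at P10 and 2.07, 2.57 and 3.86 CPM in adults. Neither gene overlapped between the ages. The Itga7 call (log2 fold change -1.46 ± 0.51 SE, edgeR FDR = 0.0450) did not survive leaving out any P10 library, adult replicate 1 or adult replicate 2 (FDR from 0.0513 to 0.178), nor did it hold in DESeq2 (FDR = 0.0647). The Itga7 gene overlaps Mettl7b on the GRCr8 assembly, and the libraries did not keep the strand.

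The collagen-binding chains Itga1 and Itga11 and the fibronectin- and nephronectin-binding chain Itga8 did not pass. Itga1 ranged from 4.07 to 12.9 CPM at P10 and from 8.65 to 10.6 CPM in adults, a log2 fold change of 0.36 ± 0.45 (SE) whose sign turned under library totals alone (-0.13). It also overlaps another gene, Pelo. Itga11 ranged from 6.07 to 8.68 CPM at P10 and from 1.10 to 5.13 CPM in adults, and Itga8 from 3.25 to 6.55 and from 0 to 2.42 CPM. The ages did not overlap for either, with edgeR FDRs of 0.162 and 0.0845, but Itga8 reached the filter's level at P10 alone.

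Leukocyte integrins were low at both ages. Itgal, the alpha chain of LFA-1 on lymphocytes, ranged from 7.28 to 14.1 CPM at P10 and from 5.51 to 6.57 CPM in adults (edgeR FDR = 0.152). Its partner Itgb2, shared by the leukocyte integrins, ranged from 8.50 to 17.5 and from 2.20 to 8.81 CPM (edgeR FDR = 0.175). Itgam, the macrophage and neutrophil alpha chain, had 28, 6 and 15 counts at P10 and 40, 3 and 0 in adults. Adult replicate 1 thus held nearly all adult reads of this gene, and without it the log2 fold change went from 0.80 to -2.56 (FDR = 0.635 and 0.261, with other alternatives up to 0.9395). The summed leukocyte markers in that library were 129 CPM, within the adult range of 105 to 167 CPM.

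Of the 7 tested integrin beta chains 3 fell, 1 rose and 3 did not pass, beside 13.8% lower and 12.5% higher among all genes tested. Itgb1, the partner of most alpha chains, stood at 239, 276 and 276 CPM at P10 and at 209.6, 189.9 and 231 CPM in adults. The ages did not overlap, but the log2 fold change of -0.33 ± 0.13 (SE) did not pass (edgeR FDR = 0.0692). It passed without P10 replicate 1 (FDR = 0.0429), under a filter of 5 CPM in 3 libraries (FDR = 0.0493) and with library totals alone (FDR = 0.000491), with others up to 0.435. Itgb6, an epithelial chain that binds latent TGF-beta, ranged from 9.63 to 28.2 CPM at P10 and from 12.1 to 16.3 CPM in adults. Its edgeR FDR was 0.304. It passed when its lowest P10 library, replicate 1, was left out (FDR = 0.0206) and with library totals alone (FDR = 0.0309), with others up to 0.732.

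Itgb4 anchors epithelial cells to laminin in hemidesmosomes together with Itga6. Its level was 72.15, 73.3 and 50.0 CPM at P10 and 13.1, 12.5 and 33.8 CPM in adults, a 3.15-fold fall (log2 fold change -1.66 ± 0.30 SE, edgeR FDR = 0.000852). Adult replicate 3 lay apart from the other adults without reaching the P10 libraries, and without it the log2 fold change was -2.34. In that library the summed acinar markers were 3827 CPM against 997 and 1129 CPM in the other adults, and the summed duct markers 206 CPM against 169.8 and 152 CPM.

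Itgb5, a vitronectin-binding chain, stood at 41.4, 45.3 and 55.8 CPM at P10 and at 11.1, 20.9 and 21.7 CPM in adults. The ages did not overlap and the fall was 2.62-fold (edgeR FDR = 0.000673). Itgb3, the vitronectin and platelet receptor chain, stood at 5.70, 8.77 and 10.2 CPM at P10 and at 0, 0.733 and 0.734 CPM in adults. Those levels come from 143 counts at P10 and 6 in adults, all of the latter in replicates 2 and 3. The log2 fold change was -3.90 ± 0.75 (SE; edgeR FDR = 0.00127). Itgb3 reached the filter's level at P10 alone. It could enter the test only by being high there, so these values are no independent support for the fall. Of the 5 platelet markers with a row, Gp1bb, Gp9 and Ppbp were listed at 0 in every library, as was the fibroblast gene Col1a2. Pf4 had 43 counts at P10 and 57 in adults, and Gp1ba had 0, 0 and 4 at P10 and 6, 5 and 6 in adults.

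Itgb8 pairs with the alpha-v chain and, like Itgb6, binds latent TGF-beta. It rose from 1.63, 0.446 and 0.4855 CPM at P10 to 7.61, 7.33 and 4.59 CPM in adults, on 17 counts against 67. Every adult library was above every P10 library (log2 fold change 2.82 ± 0.72 SE, edgeR FDR = 0.00906). Itgb8 reached the filter's level in adult libraries alone. It could enter the test only by being high there, so these values are no independent support for the rise. The call was lost without adult replicate 1 (FDR = 0.0653) or adult replicate 2 (FDR = 0.0620), and the FDR ran from 0.00241 to 0.155 across the alternatives. Without P10 replicate 1 the log2 fold change was 3.73.

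Of the 5 tested laminin chains 4 fell, beside 13.8% of all genes tested. The 6 chains together came to 346, 399 and 389 CPM at P10 and to 137, 177 and 143 CPM in adults. Lama5, the alpha chain of the laminins of mature basement membranes, stood at 78.4, 103 and 105 CPM at P10 and at 21.8, 34.5 and 21.1 CPM in adults. Every P10 library was above every adult library, and the log2 fold change was -1.91 ± 0.21 (SE; edgeR FDR = 7.47e-06). Lama1, the embryonic alpha chain, was close to the floor, at 0.743 to 2.85 CPM at P10 and 1.73 to 3.67 CPM in adults, and did not pass (edgeR FDR = 0.438).

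Both beta chains fell. Lamb2, which joins Lama5 in adult and vascular basement membranes, was at 42.7, 47.5 and 44.7 CPM at P10 and 11.1, 14.7 and 15.6 CPM in adults (3.23-fold, edgeR FDR = 3.49e-05). Lamb3 is the beta chain of the epithelial laminin that Itga6 and Itgb4 bind. It was at 41.0, 54.1 and 45.4 CPM at P10 and 7.95, 13.2 and 8.63 CPM in adults (4.78-fold, edgeR FDR = 7.99e-06). For each the lowest P10 library was above the highest adult library by more than the range within either age.

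Lamc1, the gamma chain of most laminins, was at 181, 193 and 192 CPM at P10 and 94.4, 111 and 93.1 CPM in adults (1.90-fold, edgeR FDR = 8.27e-05). The ages did not overlap, and the fitted fall was smaller than that of either beta chain, a difference that was not tested. Lamc3 had 1 count at P10 and 10 in adults, with 8 of the 10 in adult replicate 3, and was too low to be tested.

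Nid2, a nidogen that links laminin to collagen IV, was at 21.7, 18.3 and 20.6 CPM at P10 and 7.26, 13.6 and 3.86 CPM in adults. The adult libraries spread widely but stayed under the P10 range (log2 fold change -1.35 ± 0.39 SE, edgeR FDR = 0.0165). Leaving out P10 replicate 4, adult replicate 1 or adult replicate 3 ended the call (FDR from 0.0558 to 0.0625). Agrn encodes agrin, a proteoglycan that joins laminin to dystroglycan. It was at 114, 127 and 118 CPM at P10 and 61.2, 76.2 and 84.8 CPM in adults, a 1.61-fold fall with no overlap (edgeR FDR = 0.00316).

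Neither Dag1 nor the adhesion kinases passed. Dag1 was at 162, 176 and 146 CPM at P10 and 147, 187 and 178 CPM in adults (log2 fold change 0.078 ± 0.14 SE, edgeR FDR = 0.720). Ptk2 was at 76.1, 54.7 and 61.9 CPM and 68.8, 68.2 and 71.8 CPM (0.12 ± 0.16 SE, edgeR FDR = 0.651). For both genes the ages overlapped, and the sign turned under library totals alone (-0.42 for Dag1, FDR = 0.0348, and -0.37 for Ptk2, FDR = 0.0974; up to 0.963 and 0.9605 across the alternatives). Ilk was at 109.9, 98.2 and 104 CPM and 79.5, 84.7 and 85.6 CPM. The ages did not overlap for Ilk, and its log2 fold change of -0.32 ± 0.13 (SE) did not pass (edgeR FDR = 0.0944) except with library totals alone (FDR = 0.000442, with others up to 0.332). Ilk overlaps Taf10 on GRCr8.

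The other 3 untested genes had few reads. Itga4, an alpha chain of leukocytes, had 34 counts at P10 and 6 in adults, with 24 of the former in P10 replicate 1, where the summed leukocyte markers were highest (250.1 CPM against 119.9 and 133 CPM in the other P10 libraries). Itga10, a collagen-binding chain, had 1 count in all, and Itgb7, a leukocyte chain, had 4 at P10 and 1 in adults.

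**Figure D3:**
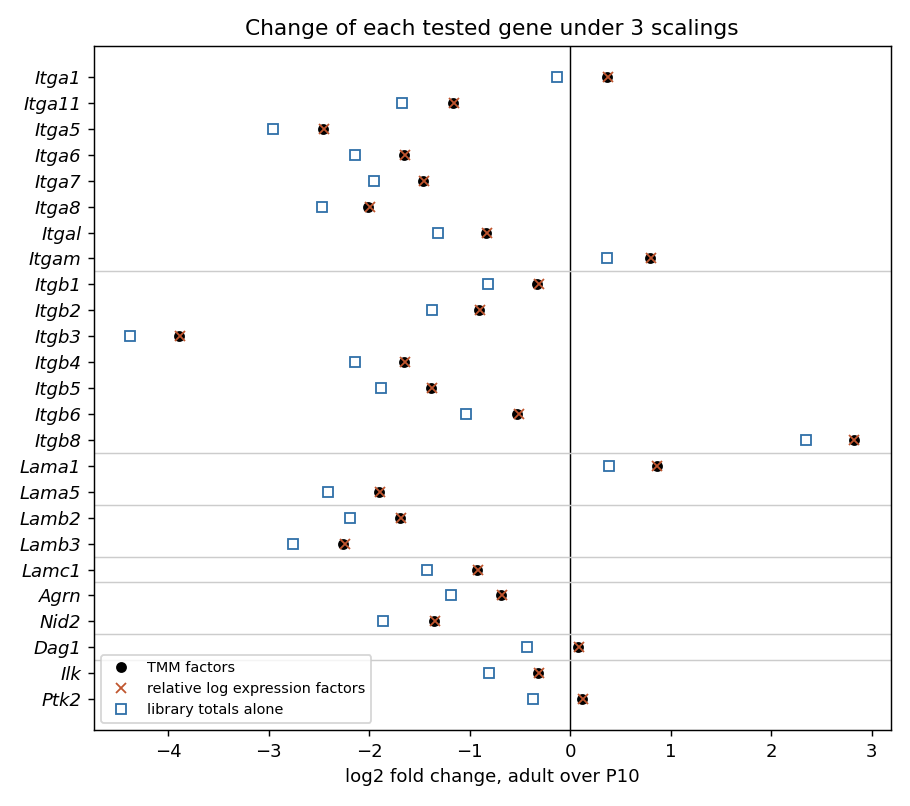
Log2 fold change, adult over P10, of each tested gene with TMM factors (black), relative log expression factors (orange crosses) and library totals alone (open blue squares). The first pair coincide, and library totals move every gene to the left, so that Itga1, Dag1 and Ptk2 change sign.

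Shares of counts within a library do not depend on how libraries are scaled. Of the counts of Itga5 and Itgb1 together, Itga5 held 31.9%, 27.3% and 23.6% at P10 and 7.48%, 10.2% and 6.74% in adults. Of those of Itgb4 and Itgb1, Itgb4 held 23.2%, 21.0% and 15.4% at P10 and 5.90%, 6.16% and 12.8% in adults. Both shares were lower in every adult library than in any at P10. Itga1 held 10.9%, 18.1% and 34.2% of the counts of Itga1 and Itga6 at P10 and 41.7%, 53.7% and 58.8% in adults. This share of a collagen-binding over a laminin-binding chain was higher in every adult library than in any at P10.

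Among the TGF-beta-binding and vitronectin-binding beta chains, Itgb8 held 1.87% ± 1.66 of the counts of Itgb8 and Itgb5 at P10 and 28.1% ± 11.8 in adults (SD, n = 3). Itgb6 held 29.5% ± 9.88 of those of Itgb6 and Itgb5 at P10 and 45.7% ± 5.70 in adults (SD, n = 3). Neither share overlapped between the ages. Itgb8 had 12, 3 and 2 counts at P10 and reached the filter's level in adult libraries alone. Its share is therefore no independent support for the rise. Lamb3 held 50.9% ± 2.17 of the counts of Lamb3 and Lamb2 at P10 and 41.6% ± 5.88 in adults (SD, n = 3), without overlap. The pairs other than Itga1 with Itga6 and Itgb4 with Itgb1 were chosen after the values were seen, and no share was tested.

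**Figure D4:**
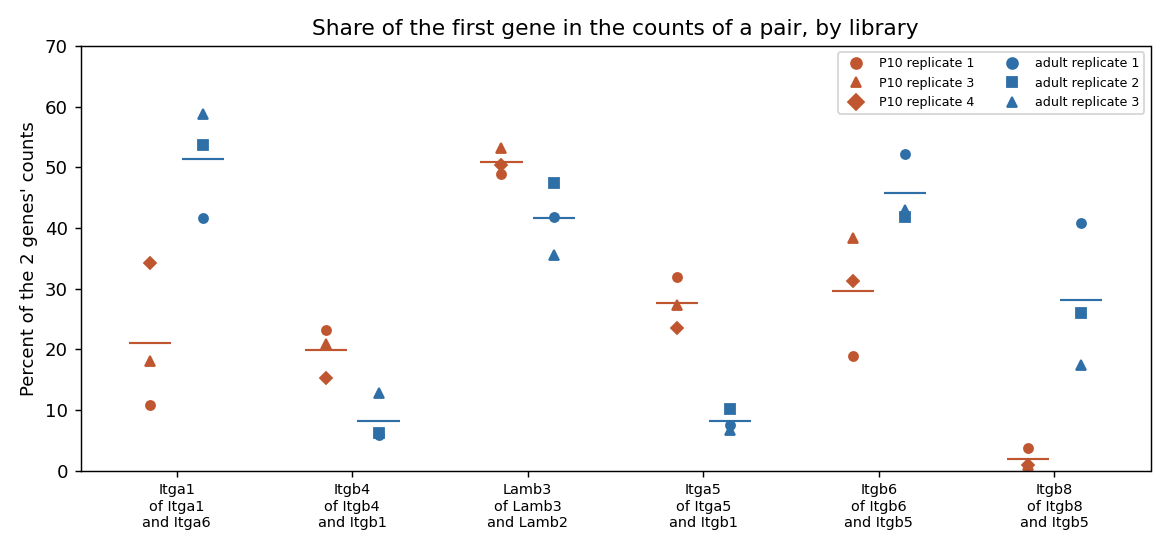
Percent of the counts of 2 genes that belong to the first, for 6 pairs, with a marker for each library (P10 orange, adult blue) and a line at each mean. The ages are apart for all 6 pairs, but only Itga1 with Itga6 and Itgb4 with Itgb1 were planned. The other pairs were chosen after the values were seen, so their separation is no support.

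The same counts can be read as shares of the 29 genes' own reads, whose sum was lower in adults, so that a gene with a level that fell less than the sum takes a larger share. Dag1 held 11.2% ± 0.806 of them at P10 and 19.1% ± 1.36 in adults, Ptk2 4.48% ± 0.875 and 7.83% ± 0.432, and Itgb1 18.3% ± 1.22 and 23.6% ± 2.49 (SD, n = 3). Itga5 held 6.98% ± 0.997 and 2.07% ± 0.286, and Lama5 6.63% ± 0.951 and 2.89% ± 0.783 (SD, n = 3). None of these 5 shares overlapped between the ages. The same held for Ilk, Itga1, Itga6, Itga7, Itgb3, Itgb5, Itgb8, Lama1, Lamb2, Lamb3 and Lamc1, while the shares of the remaining genes overlapped. No such share was computed for other genes, but the levels of 42.3% of all genes tested did not overlap. Itgb3 and Itgb8 reached the filter's level at 1 age only, and Lama1 had just 31 counts at P10 and 34 in adults. Agrn held 8.303% ± 0.219 and 8.28% ± 0.868 (SD, n = 3), with overlap.

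Genes that work with these receptors were read from lists of the pathway, whose counts stand against 13.8% lower and 12.5% higher among all genes tested. Of the other basement membrane genes 9 of 13 tested fell and none rose (0 upward at an unadjusted p under 0.05 in edgeR, and 0 in DESeq2), with a median log2 fold change of -1.58. Sparc, a matrix protein that binds collagen IV, went from 637 ± 102 to 97.7 ± 14.8 CPM, and Col18a1, the collagen from which endostatin is cut, from 267 ± 30.6 to 59.2 ± 4.26 CPM (SD, n = 3; edgeR FDR = 6.24e-09 and 2.17e-08). Of the integrin ligands outside the basement membrane 9 of 15 fell and 1 rose, with a median of -2.19. Spp1, osteopontin, went from 706 ± 34.5 to 14.4 ± 5.64 CPM and Postn, periostin, from 283 ± 27.1 to 35.6 ± 8.50 CPM (SD, n = 3; edgeR FDR = 5.75e-11 and 5.80e-09). Spp1 is also on the duct list and Postn on the fibroblast list. Emilin1, an elastic fibre protein, rose from 134 ± 19.3 to 202 ± 26.1 CPM (SD, n = 3; edgeR FDR = 0.00724). This rise was lost with library totals alone (FDR = 0.701) and with a block for the replicate number. The FDR ran from 0.000731 to 0.701 across the alternatives.

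Of the focal adhesion adaptors and kinases 8 of 30 tested fell, 2 rose and 20 did not pass, with a median of -0.20. Over all genes 26.3% were called, and the count is no result about the list. Flna, the actin crosslinker filamin A, went from 525 ± 23.9 to 115 ± 6.30 CPM and Tns1, tensin 1, from 59.6 ± 7.04 to 18.3 ± 3.52 CPM (SD, n = 3; edgeR FDR = 4.82e-09 and 1.90e-05). Ptk2b, the kinase most like Ptk2, rose from 80.6 ± 2.22 to 154 ± 14.6 CPM (SD, n = 3; edgeR FDR = 0.000101). With library totals alone 17 of the 30 were lower and 1 was higher. Under that scaling 3612 of all 10124 genes tested were lower and 343 were higher.

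Of the dystrophin and dystroglycan complex 1 of 15 tested genes fell and 1 rose, with a median of -0.15, a smaller share called than among all genes. Sgce, epsilon-sarcoglycan, went from 24.4 ± 3.98 to 6.41 ± 1.38 CPM, and Utrn, utrophin, from 88.7 ± 17.6 to 203 ± 19.4 CPM (SD, n = 3; edgeR FDR = 0.000216 and 3.67e-05). Of the hemidesmosome and tetraspanin partners 1 of 8 tested fell and 1 rose, with a median of -0.16, a share near that of all genes. Cd9, a tetraspanin that associates with integrins, went from 69.9 ± 4.15 to 5.35 ± 2.75 CPM, and Cd82, another tetraspanin, from 66.3 ± 3.94 to 106 ± 10.7 CPM (SD, n = 3; edgeR FDR = 3.14e-07 and 0.00227). The Cd82 rise was lost with library totals alone (FDR = 0.371, over a range of 0.000225 to 0.371). The fibroblast, pericyte, duct and Schwann cell markers given above were lower in the same libraries.

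**Figure D5:**
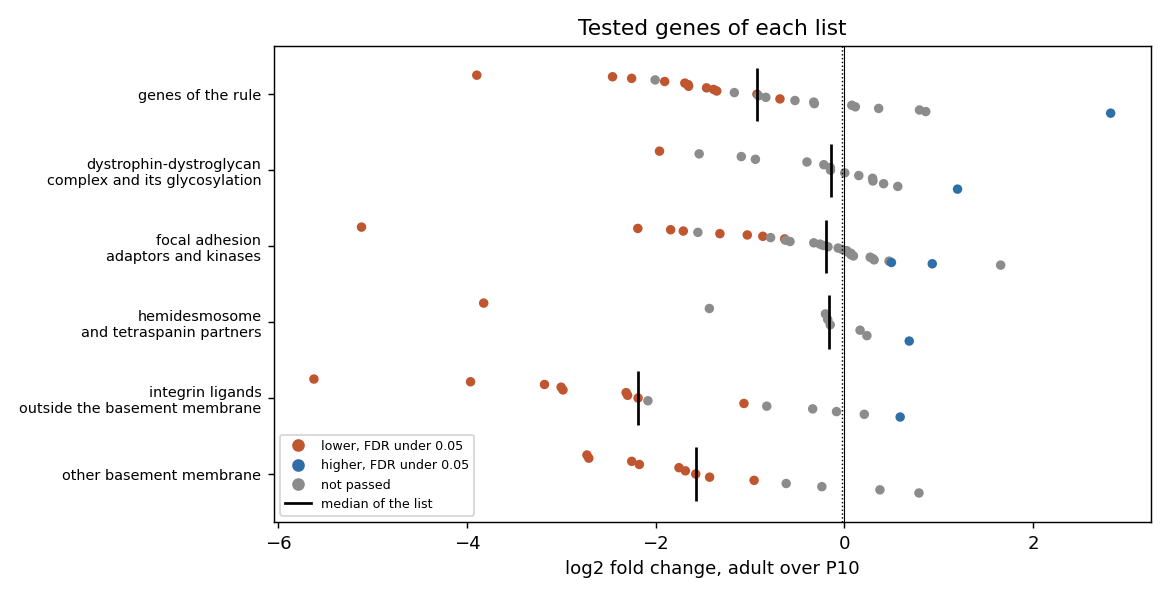
Log2 fold change, adult over P10, of the tested genes of each list, coloured as lower (orange), higher (blue) or not passed (grey), with a bar at each median; the dotted line is the median of all tested genes. The 2 matrix lists have medians of -1.58 and -2.19, and the 3 lists of intracellular and membrane partners have medians between -0.20 and -0.15.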

How the data were processed

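Raw read counts per gene symbol, as deposited in 1 file for each of the 6 libraries, were the values analysed. The libraries were single-end, from polyadenylated RNA and without strand, per the labels' protocols. The submitters' processing notes name Bowtie2, TopHat2 2.0.10, HTSeq and the build rn5, and also DESeq and edgeR without a role. Ambiguous reads (0.319% to 0.474% of gene counts and counters) entered no gene's count. Nor did alignments that were not unique, 23.4% to 27.7% of the same total at P10 and 15.1% to 17.8% in adults. What this difference between the ages does to the levels was not tested. The 5 counter rows were left out. A deposited table with the same values for all libraries was not used.

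From these, edgeR 4.0.16 (R 4.3.3) filtered genes with filterByExpr (minimum count 10, total 15), scaled by TMM and fitted age group as the only term over all libraries. Standard errors come from the fitted log2 change and the F statistic (its size over the root of F). The script was tested on simulated data. Replicates of an age differed by more than sampling noise (chi-square over its degrees of freedom 6.56 to 17.7). The genes described and all lists were chosen with earlier results of these data known. Of the 30 genes the rule matched, 1 is not reported here; it stayed in the fit and is left out of every count and sum over the genes described. Each of the 29 genes that was called or averaged at least 20 CPM is given by library. From a pathway list the 2 called genes with the smallest p in the commoner direction and the 1 in the other are named. Shares planned with Lama2, Lama4, Lamb1, Itga3, Nid1 or Hspg2 were not computed, as these were not analysed here. Settings tried besides were relative log expression factors, plain library totals, DESeq2 1.42.0, TMM computed after removing hormone and acinar genes, testing unfiltered genes, at least 5 CPM in 3 libraries, a block for the replicate number, and each library left out in turn.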

Additional observations from a re-analysis of the deposited data

How the results depend on the processing

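With library totals alone 20 of the genes described were lower instead of 12. The same setting gave 17 focal adhesion genes lower and 1 higher (8 and 2 with TMM), 4 genes lower in each of the dystroglycan and hemidesmosome lists (1 with TMM), and no riser among integrin ligands or hemidesmosome partners (1 with TMM). Over all genes it gave 343 higher and 3612 lower. The sign turned for Dag1 (-0.42), Itga1 (-0.13) and Ptk2 (-0.37). The 5 CPM filter left Itgb8 untested, so that no gene described was higher. DESeq2 gave 2 integrin ligands higher, from more genes tested.

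With the replicate number as a block, fitted over numbers 1 and 3, which occur at both ages, no gene described was higher and 11 were lower. Itga7 and Itgb8 lost their calls (FDR = 0.220 and 0.155), and Dag1 had a log2 fold change of -0.063. The block gave 679 genes higher and 729 lower over all genes, no integrin ligand higher, and 1 focal adhesion gene higher and 5 lower. It leaves 1 residual degree of freedom. Deviations of same-numbered libraries had correlations of -0.024 and -0.0049, and nothing in the labels says that a number marks a shared source.

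Without any 1 library the genes described gave 0 to 1 higher and 10 to 13 lower, and the hemidesmosome list 1 to 2 higher. Over all genes the same fits gave 923 to 1262 higher and 1040 to 1266 lower, of 10044 to 10813 tested. Itgam ran from -2.56 (without adult replicate 1) to 1.44 (without adult replicate 3). The share of Itga1 in Itga1 and Itga6 differed by 25.2 to 36.9 points and that of Itgb4 in Itgb4 and Itgb1 by -13.8 to -9.89 points. Over the genes named and their alternatives 445 of the values kept direction and side of the threshold, 17 no longer passed, 10 newly passed and 5 turned sign; the cause was not tested. Depth is lowest for the tested genes that averaged under 10 CPM: Itga7, Itgb3 and Itgb8, which were called, and Itga1, Itga8, Itga11, Itgal, Itgam, Itgb2 and Lama1, which were not.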
